A study of Mus musculus with 4 samples.

Results

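Genes that separated barcode suffixes 1 and 2 from barcode suffixes 3 and 4 in single-cell RNA sequencing of mouse MLL-AF9 leukaemia are described here. Barcodes with at most 10% of their unique molecular identifiers (UMIs, 1 per captured transcript end) from mitochondrial genes were kept. A gene was taken where both libraries of 1 pair of suffixes exceeded both of the other pair at least 2-fold, with both of the higher libraries at 20 CPM or more, where CPM is a gene's UMIs relative to all UMIs of its library, on the usual counts-per-million scale. Of 27998 genes in the table, 4907 reached 20 CPM in both libraries of at least 1 pair, and 194 met the rule (3.95% of those measured). Of these, 60 were higher in suffixes 1 and 2 (1.22%) and 134 were higher in suffixes 3 and 4 (2.73%). Kept barcodes numbered 2425 with suffix 1 or 2 and 3031 with suffix 3 or 4, of 5664 in the table.

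The 4 samples were Hif-1a wt with PBS, Hif-1a KO with PBS, Hif-1a wt with chemotherapy and Hif-1a KO with chemotherapy, with 1 sample of each. All came from c-Kit+ marrow cells of Hif-1alpha Lox/Lox, CreERT2 mice that carried an MLL-AF9 retrovirus, were grown as primary leukaemias and were passed on to further recipients, and the labels give strain C57BL6 and an age of 11 weeks. Tamoxifen (1 mg, 5 days) or vehicle was followed by cytarabine (100 mg/kg, 5 days) with doxorubicin (3 mg/kg, 3 days) or by PBS, and GFP+ cells, those carrying the retrovirus, were sorted from crushed bones 3 days later. How many mice stand behind a sample is not stated. No source read here ties a suffix to a sample, so the suffixes stand for 4 libraries of unknown condition, no difference between them can be assigned to genotype or treatment, and no test was made.

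MLL-AF9 is a fusion oncogene that holds myeloid progenitors in an immature, dividing state. In normal marrow, progenitors on the neutrophil path first make the proteases and the peroxidase of primary granules, and later the antimicrobial proteins of secondary granules and the calprotectin subunits S100a8 and S100a9. Monocytes instead acquire the receptors Csf1r and Ccr2, lysozyme and the lipid-handling proteins of macrophages, and the transcription factor Myc is known for driving growth, ribosome assembly and division in immature cells.

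Kept barcodes held between 7644436 UMIs (suffix 1) and 9932649 UMIs (suffix 3) per library. Barcodes of suffixes 1 and 2 were deeper, with median UMIs of 6093.5 and 6435, than those of suffixes 3 and 4, with 5315 and 5324. Median genes per barcode were 2034, 2068, 1707 and 1734, and 975, 952, 899.5 and 905 when each barcode was thinned to 2000 UMIs, which left out between 20 and 45 shallower barcodes per suffix. Depth thus moved with the pairs, and its part in the results was not tested beyond the thinned counts given in the closing section. All 4 libraries held Ptprc (CD45, of white blood cells) between 60.6 and 85.6 CPM, Spi1 (PU.1, of myeloid and B cells) between 324 and 397 CPM and Hoxa9, a homeobox gene that MLL fusions drive, between 155 and 200 CPM. Summed markers of erythroid cells (7.0 to 10.9 CPM), T and NK cells (3.4 to 15.7 CPM) and megakaryocytes (8.2 to 12.3 CPM) were low, and Cd3e and Cdh5 had no UMI. Summed B cell markers stood at 87.6, 89.0, 67.2 and 69.9 CPM, nearly all from Cd79b. Summed stromal and endothelial markers stood at 412, 437, 697 and 712 CPM, of which Vim, which myeloid cells also express, made up 315, 357, 614 and 624 CPM; the part of such cells in the results was not tested. Hif1a, the targeted gene, stood at 38.5, 35.2, 29.5 and 26.5 CPM in suffixes 1 to 4 and did not meet the rule. Since 3' counts outside a deleted part can persist, this level checks no label. Of the barcode sequences in the table, 17 occurred with 2 suffixes.

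**Figure D1:**
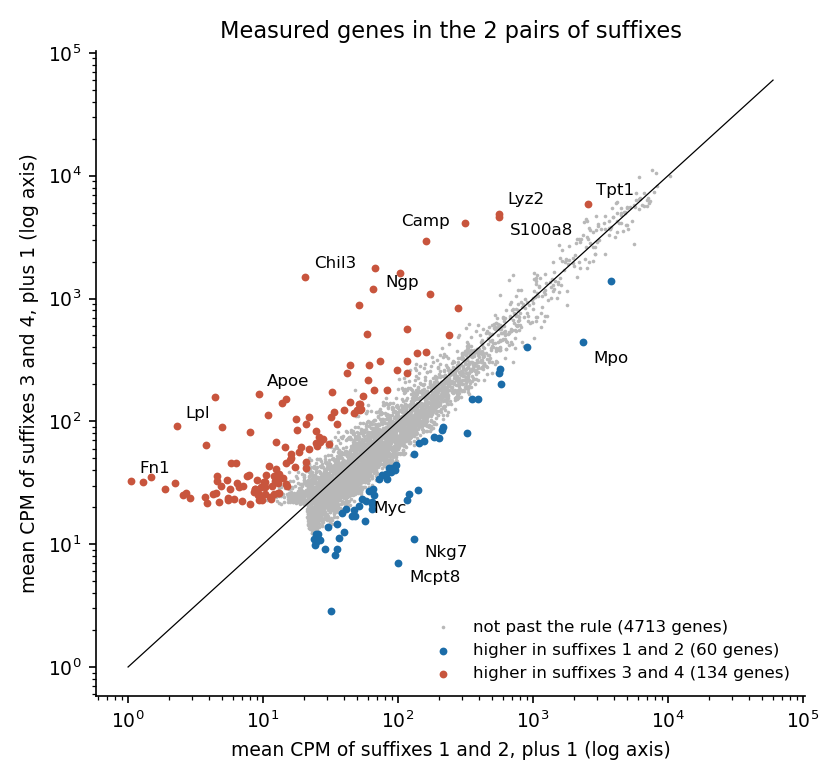
Mean CPM plus 1 of each measured gene in suffixes 1 and 2 (x axis, log) and in suffixes 3 and 4 (y axis, log), with the line of equal levels. The 60 genes higher in suffixes 1 and 2 (blue) lie close below the grey cloud, and the 134 genes higher in suffixes 3 and 4 (red) reach far above it, up to Chil3, Lpl and Fn1.

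The gap between the pairs was wider for the genes higher in suffixes 3 and 4. The gap of a gene is the lower library of the higher pair over the higher library of the lower pair. Its median was 3.15-fold over the 134 genes (2.01 to 243), with 38 genes at 5-fold or more, and 2.32-fold over the 60 genes (2.0 to 11.96), with 3 at 5-fold or more. The exact 95% counting interval of the gap lay wholly above 2-fold for 107 of the 134 and 28 of the 60. The 134 genes supplied 0.711% and 0.860% of all UMIs in suffixes 1 and 2 against 4.53% and 3.92% in suffixes 3 and 4. The 60 genes supplied 1.37% and 1.36% against 0.461% and 0.477%. Intervals in this report cover counting error only and hold no spread between mice.

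The direction of smaller differences was the opposite. Both libraries of suffixes 1 and 2 stood above both of suffixes 3 and 4, by any margin, for 2727 of the measured genes (55.6%), and the reverse held for 1280 (26.1%). The median log2 ratio of suffixes 3 and 4 over suffixes 1 and 2, from pair means with 1 CPM added, was -0.17 over all measured genes, or -0.04 with TMM scaling. With TMM scaling 40 genes were higher in suffixes 1 and 2 and 159 in suffixes 3 and 4, and with median of ratios scaling 40 and 160. Log2 ratios below are therefore to be read against -0.17.

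**Figure D2:**
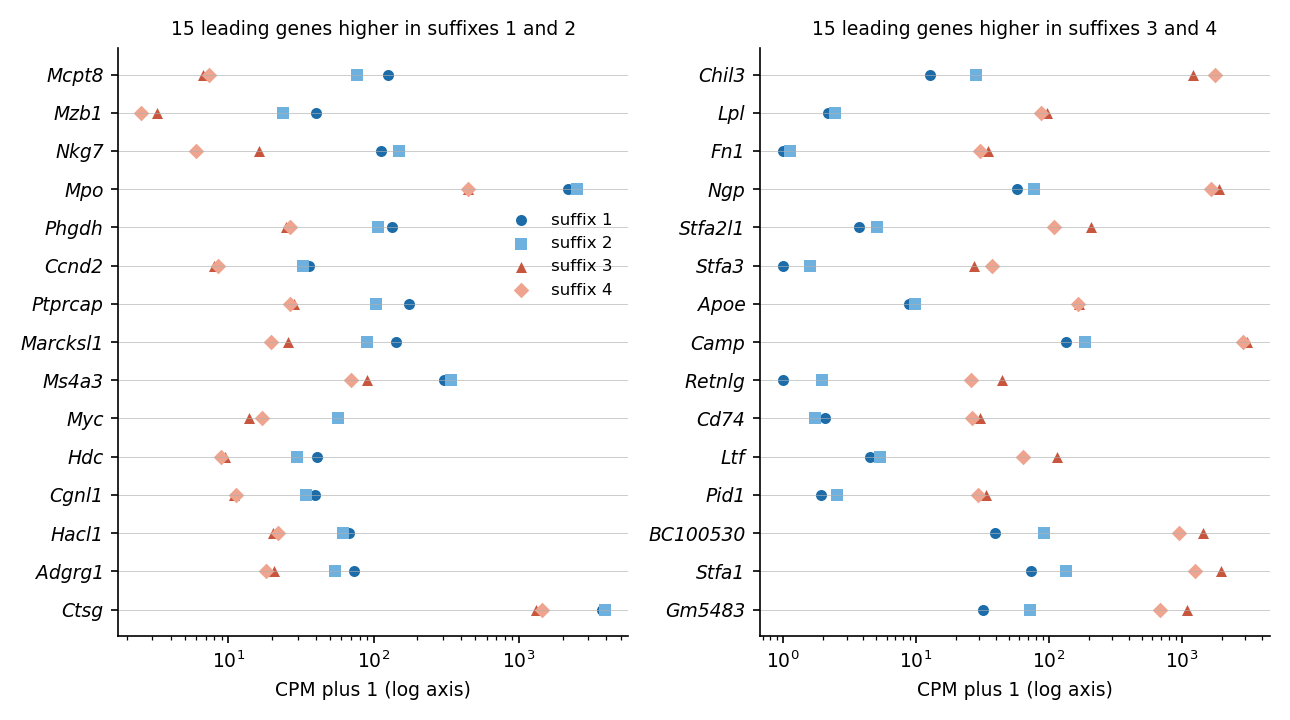
CPM plus 1 (log axis) in each suffix for the 15 genes of each direction with the widest gap after 1 CPM was added. In the left panel suffixes 1 and 2 lie to the right of suffixes 3 and 4 for each gene, and in the right panel the order is turned, with Chil3, Lpl and Fn1 at the top.

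Genes of secondary granules and mature neutrophils were the largest group among those higher in suffixes 3 and 4. Of 40 listed genes 29 were measured, and 20 were higher in suffixes 3 and 4 and 0 in suffixes 1 and 2, with a median log2 ratio of 3.27. Ngp, a neutrophil granule protein (chr9:110419747-110423012, plus strand, GRCm38), stood at 56.4 and 75.7 CPM in suffixes 1 and 2 and at 1904 and 1650 CPM in suffixes 3 and 4, a gap of 21.8-fold (20.1 to 23.7). Camp, the precursor of an antimicrobial cathelicidin (chr9:109847379-109849617, minus strand), stood at 133 and 185 CPM against 3069 and 2862 CPM. Ltf, the iron-binding lactoferrin, stood at 3.5 and 4.3 CPM against 114 and 62.9 CPM. All 3 genes were far apart between the pairs, while suffix 3 exceeded suffix 4.

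Chil3, a chitinase-like secreted protein (chr3:106147554-106167564, minus strand), had the widest gap with 1 CPM added. It stood at 11.8 (95% interval 9.47 to 14.5) and 27.4 (23.9 to 31.2) CPM in the lower pair, against 1216 and 1789 CPM, a gap of 44.4-fold (38.9 to 50.8). Calprotectin differed within both pairs as well as between them. S100a8 stood at 424, 693, 6354 and 2919 CPM in suffixes 1 to 4, and S100a9 at 196, 432, 4968 and 3258 CPM. Suffix 2 exceeded suffix 1 and suffix 3 exceeded suffix 4 for both subunits. Lcn2, which binds bacterial iron carriers, stood at 43.0 and 73.1 CPM against 537 and 489 CPM. Fcnb, a lectin of granulocyte granules, stood at 11.0 and 16.5 CPM against 172 and 127 CPM, and Mmp8, the neutrophil collagenase, at 1.44 and 1.92 CPM against 25.3 and 24.6 CPM. Retnlg and Stfa3 had no UMI in suffix 1, which allows up to 0.392 CPM. They stood at 0.96 and 0.60 CPM in suffix 2, at 43.6 and 26.4 CPM in suffix 3 and at 24.7 and 36.3 CPM in suffix 4.

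Few barcodes carried most of these UMIs. In suffix 3, 32 barcodes held 50% of the Camp UMIs, 28 held 50% of Ngp and 9 held 50% of Ltf. In suffix 1, 2 barcodes held 50% of the Camp UMIs and 2 held 50% of Ngp. Retnlg had 50% of its UMIs in 4 barcodes of suffix 3 and 3 of suffix 4. Because libraries are sums over barcodes, more cells of a kind and more RNA per cell cannot be told apart in the CPM of a library.

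Stefin A genes, which encode inhibitors of cysteine proteases, formed the largest set of neighbours. Stfa2l1, Gm5483, Stfa1, BC100530, Stfa2 and Stfa3 lie together at chr16:36156811-36455392, and all 6 were higher in suffixes 3 and 4. Stfa1 stood at 72.2 and 132 CPM against 1953 and 1266 CPM, BC100530 at 38.6 and 90.2 CPM against 1447 and 955 CPM, and Stfa2 at 0.13 and 5.4 CPM against 85.8 and 40.9 CPM. Suffix 2 exceeded suffix 1 for these 3 genes, and suffix 3 exceeded suffix 4. The genes are near copies of each other, so the share of UMIs given to each member is uncertain.

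The upstream letters of secondary granule genes are shown because such genes are known targets of C/EBP factors, which bind pairs of TTGC half-sites. Windows of 250 bases before to 50 bases after the start were taken from RefSeq (GRCm38.p6) and found for 152 of the 194 genes. The pattern TTGCNNAA asks for 1 full half-site and only the last 2 bases of the other, so a match need not hold a full pair. It was searched on both strands, as were the PU.1 site GAGGAAGT, an interferon response motif (GAAA, 2 free bases, GAAA) and the E-box CACGTG. Matches of different motifs were counted apart even where they could overlap. Windows of Fcnb, Lcn2 and S100a9 matched TTGCNNAA, and those of Camp, Chil3 and S100a8 did not. Printed because they too matched, stretches of Ngp (chr9:110419630-110419717, plus strand), Ltf (chr9:111019177-111019264, plus strand) and Mmp8 (chr9:7558370-7558428, plus strand) hold a match in capitals that starts 138, 75 and 19 bases before the RefSeq start.
Ngp: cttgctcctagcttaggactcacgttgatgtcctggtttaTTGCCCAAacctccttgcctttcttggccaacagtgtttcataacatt
Ltf: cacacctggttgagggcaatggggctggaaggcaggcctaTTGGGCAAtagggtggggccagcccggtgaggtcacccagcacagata
Mmp8: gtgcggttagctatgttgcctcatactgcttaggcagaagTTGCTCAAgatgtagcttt
TTGCNNAA was found in 15.1% of 126 windows of genes higher in suffixes 3 and 4, in 6.0% of 50 windows of genes higher in suffixes 1 and 2, in 8.87% of 4794 windows of measured genes and in 10.8% of 32851 windows of all genes. GAGGAAGT was found in 11.1%, 2.0%, 3.69% and 3.20% of the same windows, and the interferon response motif in 7.14%, 0.0%, 3.11% and 3.44%. Windows were counted rather than genes, and the 126 windows came from 109 genes and the 50 from 43. Overlapping windows of a gene, as for Rnase6, and nearly identical ones, as for Pirb, Pira2 and Lilra6 below, were counted apart. A match describes letters and shows no binding.

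Monocyte genes were the next group. Of 29 listed genes 18 were measured, 9 were higher in suffixes 3 and 4 and 0 in suffixes 1 and 2, with a median log2 ratio of 1.25. Fn1, fibronectin (chr1:71585520-71653200, minus strand), had 0 UMIs in suffix 1 and 1 UMI in suffix 2, against 33.5 (30.0 to 37.3) and 29.2 (25.7 to 33.1) CPM. Its gap of 243-fold has a counting interval from 43.3 to 9655, since it rests on that 1 UMI. Lyz2, the lysozyme of myeloid cells, was far more abundant and stood at 420 and 703 CPM against 4447 and 5290 CPM. Csf1r, the receptor for macrophage colony-stimulating factor, stood at 13.7 and 16.3 CPM against 53.4 and 53.6 CPM. Ccr2, which guides monocytes out of the marrow, stood at 17.3 and 19 CPM against 60.9 and 61.3 CPM. Klf4, a transcription factor of monocyte formation, stood at 1.57 and 2.16 CPM against 21.3 and 24.0 CPM. Csf1r and Ccr2 were close within each pair. Ly6c2, a surface protein of monocytes and their precursors, did not meet the rule and stood at 2170, 2950, 2971 and 3094 CPM.

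Macrophage genes of lipid handling and the lysosome were split. Of 37 listed genes 19 were measured, with 6 higher in suffixes 3 and 4 and 1 in suffixes 1 and 2 (median log2 ratio 0.61). Lpl, lipoprotein lipase (chr8:68880491-68907448, plus strand), stood at 1.18 and 1.44 CPM against 95.7 and 85.6 CPM, a gap of 59.4-fold (33.8 to 116). Apoe, a lipid carrier, stood at 7.85 and 8.77 CPM against 168 and 164 CPM, and Wfdc17 at 145 and 200 CPM against 1309 and 865 CPM. Grn, progranulin, stood at 107 and 123 CPM against 312 and 305 CPM, and Ctsb, a lysosomal protease, at 230 and 245 CPM against 500 and 503 CPM. Fabp5, a fatty acid carrier, was the exception, at 223 and 202 CPM against 84.5 and 82.1 CPM.

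Other immune genes higher in suffixes 3 and 4 belonged to several families. Of the 18 measured S100, annexin and galectin genes 5 were higher there (median log2 ratio 0.41), among them S100a4 at 4.06 and 4.8 CPM against 32.7 and 31.6 CPM and Lgals3, galectin-3, at 85.6 and 147 CPM against 555 and 571 CPM. Of 12 measured interferon-induced genes 3 were higher there (median 0.33). Ifitm3, which blocks the entry of viruses, stood at 25.9 and 60.5 CPM against 302 and 276 CPM, Slfn2 at 16.6 and 25.1 CPM against 114 and 101 CPM, and Irf7, a transcription factor of the interferon response, at 7.85 and 8.41 CPM against 23.8 and 26.2 CPM. Ly6e, also interferon-induced and more abundant, did not meet the rule at 1016, 1100, 1327 and 1427 CPM. Of 5 measured genes of chemokines and their receptors 3 were higher in suffixes 3 and 4, with Ccr2 among them, and 0 in suffixes 1 and 2 (median 1.70). Ccl6 (2.49 and 4.56 against 24.3 and 39.6 CPM) and Ccl3 (25.9 and 35.3 against 110 and 104 CPM) met the rule, while Ccl9, at 418, 423, 276 and 280 CPM, was lower in suffixes 3 and 4 and did not.

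Cd74, the invariant chain of MHC class II, stood at 1.05 and 0.72 CPM against 29.2 and 25.4 CPM. It was the only one of 5 measured dendritic cell and MHC class II genes to meet the rule. In suffix 3, 5 barcodes held 50% of its UMIs, and in suffix 4 this was 1 barcode. Much of the Cd74 level of suffixes 3 and 4 thus came from these barcodes. Of the 5 measured genes 4 were above in both libraries of suffixes 3 and 4, as were 26.1% of all measured genes (median log2 ratio 0.52). Only H2-Ab1, a class II chain, lay the other way, at 33.6, 28.5, 16.1 and 22.2 CPM.

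Paired immunoglobulin-like receptors, which activate or restrain myeloid cells, were neighbours that moved together. Pirb, an inhibitory receptor, stood at 9.55 and 13.4 CPM against 64.1 and 69.0 CPM, Pira2 at 7.19 and 6.48 CPM against 34.8 and 36.7 CPM, and Lilra6 at 2.88 and 4.2 CPM against 35.3 and 35.0 CPM. With Lair1 they lie at chr7:3711409-4063204. Their upstream stretches (Pirb chr7:3720455-3720542, Pira2 chr7:3845152-3845239, Lilra6 chr7:3915604-3915691, all minus strand) are shown because they are nearly the same sequence, with the PU.1 letters in capitals.
Pirb: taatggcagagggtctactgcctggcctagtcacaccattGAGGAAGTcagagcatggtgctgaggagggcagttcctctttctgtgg
Pira2: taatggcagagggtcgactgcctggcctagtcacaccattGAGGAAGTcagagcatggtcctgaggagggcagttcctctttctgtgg
Lilra6: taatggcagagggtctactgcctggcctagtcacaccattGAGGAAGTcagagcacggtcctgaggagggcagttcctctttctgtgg
Each of these stretches matched each of the other two at 86 of 88 bases, and the letters start 120, 148 and 150 bases before the RefSeq starts. Genes this alike can share reads, so the division of UMIs among them is uncertain.

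Regulators and surface proteins filled in the picture. Of 23 measured myeloid transcription factors 5 were higher in suffixes 3 and 4 (median log2 ratio 0.26): Klf2, Klf4, Klf6, Tsc22d3 and Id2. Id2, an inhibitor of helix-loop-helix factors, stood at 41.7 and 35.8 CPM against 139 and 107 CPM, and Klf2 at 60.8 and 69.3 CPM against 171 and 185 CPM. Irf8 and Spi1 (PU.1), which set monocyte fate, were above in suffixes 3 and 4 without meeting the rule, Irf8 at 379, 373, 525 and 571 CPM and Spi1 at 324, 327, 397 and 384 CPM. Of 14 measured immediate early genes 4 were higher in suffixes 3 and 4 and 1 in suffixes 1 and 2 (median 0.91). Of 26 measured surface antigens 1 was higher in suffixes 3 and 4, Cd33, and 1 in suffixes 1 and 2, Cd69 (median 0.37). Cd33, a sialic acid-binding antigen used as a leukaemia target, stood at 52.3 and 47.9 CPM against 138 and 139 CPM. Il6ra, the receptor for interleukin-6, stood at 15.3 and 14.4 CPM against 44.5 and 49.6 CPM.

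In the opposite direction, the primary granule list and the Myc and ribosome assembly list each held 5 genes that met the rule. Of 15 listed primary granule genes 14 were measured, 5 were higher in suffixes 1 and 2 and 0 in suffixes 3 and 4 (median log2 ratio -0.65). Both libraries of suffixes 1 and 2 were above both others for 13 of the 14, against 55.6% of all measured genes. Mpo, myeloperoxidase (chr11:87793581-87804413, plus strand), stood at 2166 and 2507 CPM against 444 and 444 CPM, a gap of 4.88-fold (4.71 to 5.05). Ctsg, cathepsin G (chr14:56099881-56102574, minus strand), stood at 3710 and 3891 CPM against 1314 and 1444 CPM. Nkg7, a granule membrane protein, stood at 112 and 148 CPM against 15.2 and 5.03 CPM, Ms4a3, a marker of granulocyte and monocyte progenitors, at 306 and 338 CPM against 89.3 and 68.4 CPM, and Serpinb1a, an inhibitor of granule proteases, at 610 and 540 CPM against 213 and 185 CPM. Suffixes 3 and 4 were level for Mpo and differed 3-fold for Nkg7. Elane, neutrophil elastase, did not meet the rule and stood at 4811, 6368, 2700 and 2844 CPM, and Prtn3, proteinase 3, at 2420, 3104, 1928 and 2132 CPM.

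The widest gap of suffixes 1 and 2 was that of Mcpt8, while its list was mixed. Of 6 measured eosinophil, basophil and mast cell genes 2 were higher in suffixes 1 and 2 and 0 in suffixes 3 and 4, with a median log2 ratio of -0.52, and Siglecf (log2 ratio 0.49) and Lmo4 (0.44) lay the other way. Mcpt8, a basophil protease (chr14:56082166-56085273, minus strand), stood at 124 (116 to 132) and 75.5 (69.7 to 81.7) CPM against 5.74 (4.35 to 7.44) and 6.32 (4.74 to 8.24) CPM, a gap of 12-fold (9.05 to 16.1). In suffix 1, 55 barcodes held 50% of its UMIs. Hdc, which makes histamine, stood at 39.6 and 28.6 CPM against 8.46 and 7.95 CPM. Cpa3, a mast cell protease, did not meet the rule because suffix 2 (87.2 CPM) was level with suffix 3 (83.7 CPM), with suffix 1 at 174 CPM and suffix 4 at 52.9 CPM. Of the genes of immature cells, Adgrg1, an adhesion receptor, stood at 72.6 and 53 CPM against 19.7 and 17.2 CPM, and Ptprcap, a partner of CD45, at 175 and 103 CPM against 27.3 and 25.7 CPM. These were the 2 of 14 measured stem and progenitor genes that met the rule. Kit, the receptor for stem cell factor, was under 20 CPM in each library (17.4, 15.3, 5.94 and 5.85 CPM), and Cd34 stood at 148, 145, 124 and 126 CPM.

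Myc and genes of ribosome assembly were higher in suffixes 1 and 2 as a group. All 20 measured genes of that list had both libraries of suffixes 1 and 2 above both others (55.6% over all measured genes), 5 met the rule and the median log2 ratio was -0.89. Myc (chr15:61985391-61990374, plus strand) stood at 55.5 (50.3 to 61.0) and 56.2 (51.2 to 61.5) CPM against 12.9 (10.8 to 15.3) and 16 (13.5 to 18.9) CPM, a gap of 3.46-fold (2.85 to 4.23). Srm, spermidine synthase, stood at 188 and 183 CPM against 73.3 and 74.7 CPM. The nucleolar proteins Nop16 and Gnl3 stood at 67.2 and 61.1 against 27.9 and 26.4 CPM and at 92.5 and 87.2 against 39.5 and 41.2 CPM. Npm1 and Ncl, the most abundant of the list, differed less, with log2 ratios of -0.32 and -0.34. The 81 measured ribosomal protein genes had a median of 0.14 and none met the rule.

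Letters upstream of genes higher in suffixes 1 and 2 are shown for the E-box CACGTG, which Myc can bind. Stretches of Galk1, galactokinase (chr11:116012720-116012776, minus strand), and Ppa1, a pyrophosphatase (chr10:61648441-61648526, plus strand), hold it in capitals 17 and 140 bases before the RefSeq start.
Galk1: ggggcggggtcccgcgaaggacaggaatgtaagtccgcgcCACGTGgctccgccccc
Ppa1: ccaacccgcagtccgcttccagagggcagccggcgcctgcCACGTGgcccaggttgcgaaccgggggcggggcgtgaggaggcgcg
Galk1 stood at 142 and 141 CPM against 64.7 and 67.7 CPM, and Ppa1 at 90.1 and 85.0 CPM against 37.6 and 37.4 CPM. CACGTG was found in 18% of 50 windows of genes higher in suffixes 1 and 2, 6.35% of 126 windows of genes higher in suffixes 3 and 4, 11.0% of windows of measured genes and 7.15% of all windows. Nothing about Myc binding follows from these letters.

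Lists of protein folding, amino acid synthesis and S phase lay on the same side, while G2 and M phase genes stood near the background. Of 16 measured ER stress and amino acid response genes 2 met the rule (median log2 ratio -0.80). Phgdh, the first enzyme of serine synthesis, stood at 133 and 106 CPM against 23.8 and 25.5 CPM, and Creld2 at 73.1 and 68.9 CPM against 32.8 and 32.7 CPM. All 14 measured heat shock and chaperone genes were above in both libraries of suffixes 1 and 2, and 1 met the rule, Hspd1, a mitochondrial chaperone, at 358 and 345 CPM against 145 and 158 CPM. Of 35 S phase genes 33 were above in suffixes 1 and 2 (median -0.63), and Cdca7 and Mcm4 met the rule. Mcm4, a helicase subunit, lay just inside it at 76.9 and 72.2 CPM against 36.0 and 35.7 CPM. Of 32 G2 and M phase genes 20 were above in suffixes 1 and 2, where 55.6% of all measured genes were, and none met the rule (median -0.27, against -0.17 for all). Ccnd2, a cyclin of G1 phase, stood at 34.7 and 31.8 CPM against 6.95 and 7.49 CPM.

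The metabolic and drug-related lists given in this paragraph each held at most 1 gene past the rule, which 3.95% of all measured genes met. The iron list was apart, with 2 of 6 measured genes higher in suffixes 3 and 4. Such counts in short lists therefore say little about a list. None of 15 measured glycolysis genes met the rule (median log2 ratio -0.40), and Ldha, lactate dehydrogenase, stood at 655, 804, 354 and 433 CPM. None of 7 HIF core genes, 78 nuclear respiratory chain genes or 24 antioxidant genes met it, with medians of -0.18, -0.20 and 0.02. Lgals3 was the only one of 15 further HIF-induced genes. Nme1, a nucleoside diphosphate kinase of the cytarabine list, stood at 564 and 559 CPM against 232 and 257 CPM, and Cbr1, a carbonyl reductase that acts on doxorubicin, at 36.2 and 32.8 CPM against 14 and 13.2 CPM. Each was the only called gene among the 11 and 8 measured members of its list. Of 12 measured p53 targets 1 met the rule, Btg2, an antiproliferative gene, at 21.5 and 20.3 CPM against 56.6 and 61.3 CPM.

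**Figure D3:**
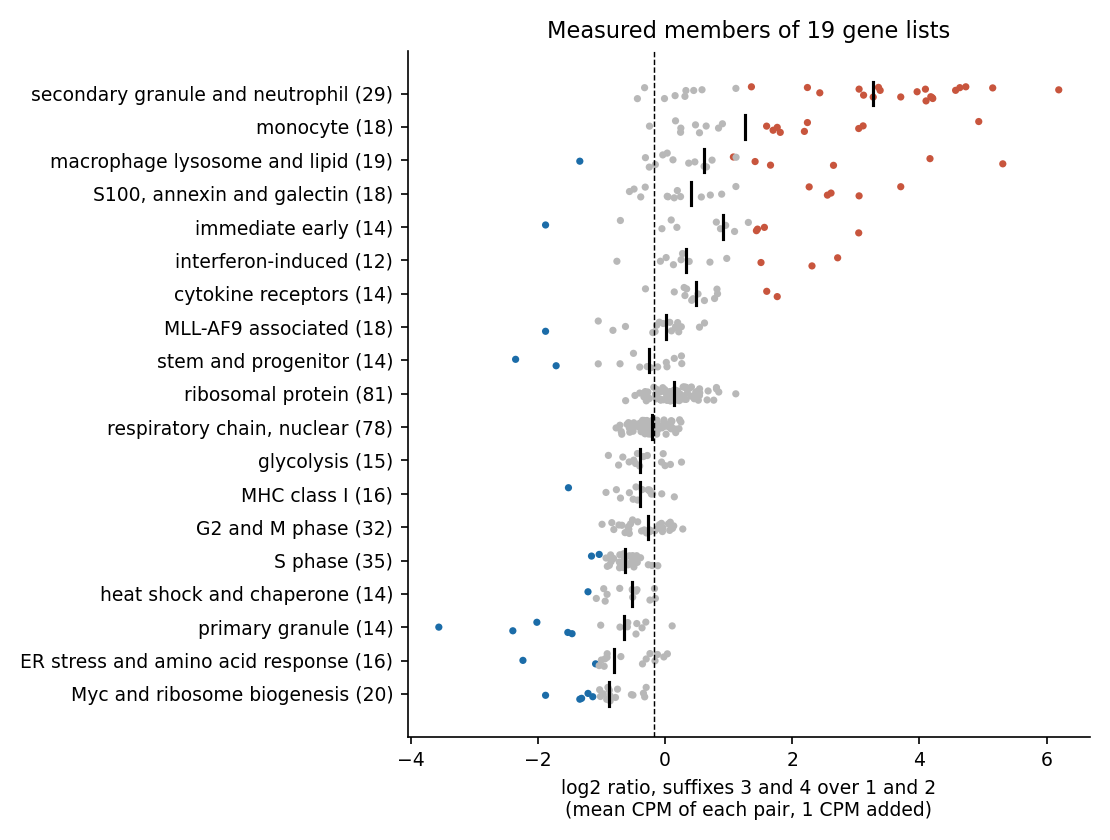
Log2 ratio of suffixes 3 and 4 over suffixes 1 and 2 (x axis) for each measured gene of 19 lists, with the number measured in brackets, a bar at the list's median and a dashed line at the median of all measured genes, -0.17. Blue points met the rule in suffixes 1 and 2, red points in suffixes 3 and 4 and grey points did not; the secondary granule list has a median of 3.27 and the Myc list of -0.89.

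The rule has an edge at 2-fold. Just inside it were Wdr18, Mcm4 and Tmem40 for suffixes 1 and 2, with gaps of 2.0, 2.0 and 2.01, and Snrk, Ssh2 and Otulin for suffixes 3 and 4, with gaps of 2.01, 2.02 and 2.03. Just outside were Cd320, Tspan4 and Gar1 at 1.99, 1.99 and 1.98, and Wipi1, Ier5 and Anxa1 at 1.98, 1.97 and 1.97. The counting intervals of the 6 inner genes reached below 2-fold, for example 1.75 to 2.29 for Mcm4 and 1.59 to 2.59 for Otulin. Libraries within a pair also differed for some genes. Suffix 2 was over 1.5-fold above suffix 1 for 22 of the 134 genes and under suffix 1 by that factor for 2. Suffix 4 was over 1.5-fold above suffix 3 for 1 of the 134 and under suffix 3 by that factor for 10. Among the 60 genes these counts were 0 and 4 for suffix 2, and 0 and 2 for suffix 4. Over all measured genes, suffix 2 was above by that factor for 38 (0.774%) and under for 23 (0.469%), and suffix 4 was above for 4 (0.0815%) and under for 54 (1.1%).

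Barcodes with high shares of maturation markers were unequal between the pairs. A barcode was gated as neutrophil where Ngp, Camp, Ltf, Lcn2, S100a8 and S100a9 made up 1% or more of its UMIs, and 12, 22, 161 and 114 barcodes of suffixes 1 to 4 did so. It was gated as monocyte-macrophage where 12 genes, among them Csf1r, Ccr2, Fn1, Apoe and Lpl, reached 0.5%, which 9, 24, 495 and 341 barcodes did. At 0.2% the second gate took 114, 148, 999 and 786 barcodes, so it has no sharp edge, and 657 barcodes of suffix 3 lay between 0.25% and 1% of UMIs. A gate for primary granules, with Mpo, Elane, Prtn3 and Ctsg at 2% or more, took 209, 313, 57 and 50 barcodes. A basophil and mast cell gate at 0.1% took 136, 85, 74 and 35 barcodes. The gates are ranges of a summed share and no cell types, and all barcodes come from a GFP+ sort. Whether gated barcodes are leukaemic cells or other marrow cells that passed the sort was not tested, and no doublets were removed.

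**Figure D4:**
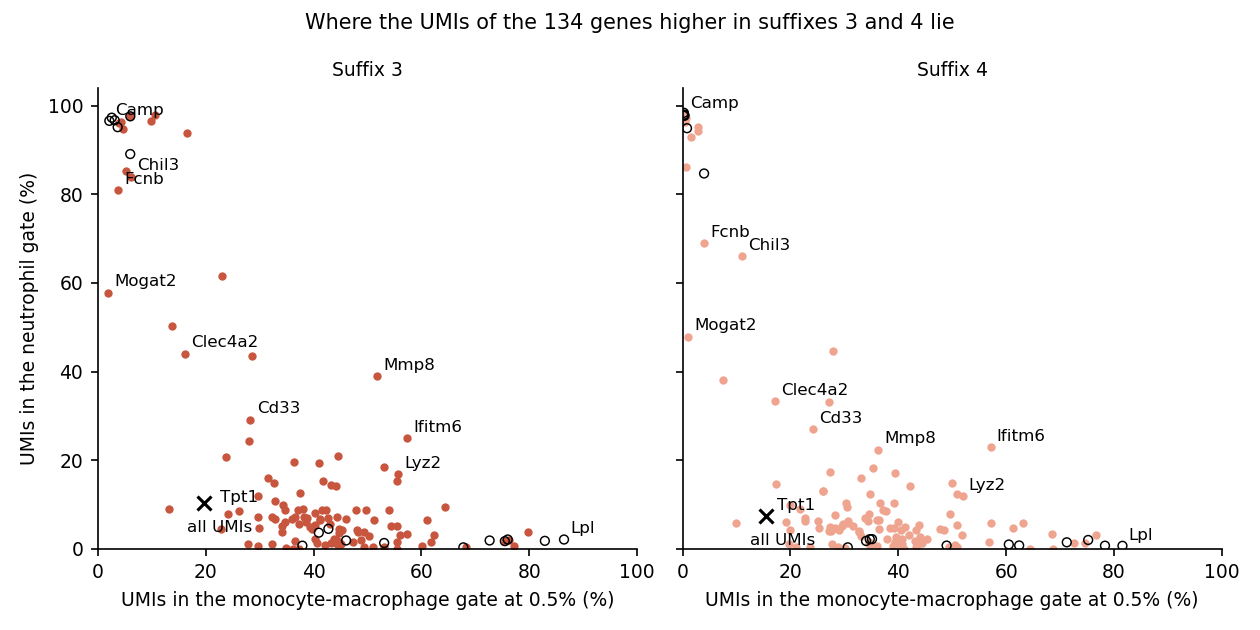
Percent of each gene's UMIs that lay in barcodes of the monocyte-macrophage gate at 0.5% (x axis) and of the neutrophil gate (y axis), in suffix 3 and suffix 4, for the 134 genes higher in suffixes 3 and 4. Open circles are genes that define the gates, and the cross is the share of all UMIs in each gate (19.7% and 10.4% in suffix 3, 15.5% and 7.48% in suffix 4); Camp, Ngp and Stefin A genes fill the upper left and Lpl the lower right, with Tpt1 near the cross.

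The 134 genes divided by where their UMIs lay. Among genes that did not define the neutrophil gate, 13 had 50% or more of their suffix 3 UMIs in it and 10 of their suffix 4 UMIs, with Stfa1 at 94.6% and 93.0% and Chil3 at 84.0% and 66.1%. Among genes that did not define the other gate, 26 and 17 had 50% or more in the monocyte-macrophage gate at 0.5%, with Ifitm3 at 79.8% and 76.7%, Pid1 at 77.2% and 72.6% and Irf7 at 75.4% and 74.6%. The median gene had 40.3% of its suffix 3 UMIs and 34.6% of its suffix 4 UMIs in that gate, against 19.7% and 15.5% of all UMIs. Mogat2 and Clec4a2 had 57.8% and 44.1% in the neutrophil gate and 1.86% and 16.1% in the other gate in suffix 3. In suffixes 1 and 2 the few UMIs of these 2 genes lay mostly in the primary granule gate (74.5% and 73.5% for Mogat2, 75.0% and 71.3% for Clec4a2). Another set was not concentrated in either gate. Tpt1, a translation-linked protein of nearly all cells, had 7.84% and 24.2% of its suffix 3 UMIs in the 2 gates, Gpc1, a heparan sulphate proteoglycan, 8.91% and 13.3%, and Otulin, a deubiquitinase, 4.40% and 22.8%.

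Without the barcodes of the neutrophil gate or the monocyte-macrophage gate at 0.5%, 29 of the 60 and 59 of the 134 genes met the rule. This left 1153, 1206, 976 and 953 barcodes. The summed CPM of the secondary granule list was 3874, 5002, 26819 and 20033 with all kept barcodes and 2934, 3285, 3887 and 4105 without the gated ones. That of the monocyte list was 4887, 6046, 11643 and 12798 and then 4842, 5874, 8685 and 9646. S100a8 and S100a9, the most abundant genes of the first list, define the neutrophil gate, and Fn1 and Klf4 of the second define the other. Much of the fall in these sums is therefore built in. Barcodes in the 0.5% gate were shallower than those outside it, with median UMIs of 3751 against 6449.5 in suffix 3 and 3715 against 6152 in suffix 4, and the part of depth in these differences was not tested. Of the 134 genes, 117 define neither gate; of these, 50 met the rule without the gated barcodes, 39 were under 20 CPM and 28 were at 20 CPM or more but under 2-fold. Their median log2 ratio was 1.68 with all kept barcodes and 1.27 without the gated ones. The gates were built from genes of the same comparison, so a smaller difference without them is partly built in for genes that define them or move with them. For 132 of the 134 genes, which were chosen for that order, both libraries of suffixes 3 and 4 still stood above both of suffixes 1 and 2, as they did for 23.7% of all measured genes in this setting. All 60 genes of the other direction kept their order too, where 53.4% of all measured genes had it. With the wider 0.2% gate and the neutrophil gate left out, 23 of the 60 and 21 of the 134 genes met the rule.

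Single genes differed in how far their levels moved when gated barcodes were left out. Tpt1 hardly moved, at 2540 and 2543 CPM against 5438 and 6051 CPM, and Gpc1 stood at 23.1 and 24.0 against 71.5 and 72.2 CPM. Kctd14 stood at 5.83 and 4.57 CPM against 40.1 and 41.0 CPM, and Ctsh, a lysosomal protease, at 59.9 and 81.4 CPM against 268 and 263 CPM. Ms4a6c, which helps to define the monocyte-macrophage gate, stood at 259 and 284 CPM against 743 and 742 CPM. Lyz2 kept a smaller difference, at 397 and 558 CPM against 1901 and 2549 CPM, as did Chil3, at 2.92 and 8.15 CPM against 176 and 556 CPM. Irf7 was level at 7.96, 8.15, 7.74 and 8.19 CPM. None of the 5 myeloid transcription factors called higher in suffixes 3 and 4 met the rule in this setting, and Klf4 helps to define a gate. The same held for the 4 immediate early genes called there and for the surface antigen Cd33. Ltf was under 3 CPM in each suffix, and Lcn2 stood at 29.7 and 48.8 CPM against 66.5 and 77.2 CPM. Ltf and Lcn2 help to define the neutrophil gate, so their fall is partly built in. On the other side, 29 of the 60 genes met the rule and 31 were at 20 CPM or more but under 2-fold. The median log2 ratio of the 60 was -1.29 with all kept barcodes and -1.14 without the gated ones. The Myc and ribosome assembly list went from 5 called genes to 1. Among the 29, Mpo stood at 2153 and 2513 CPM against 561 and 563 CPM, Myc at 55.7 and 56.5 CPM against 15.8 and 19.1 CPM, and Mcpt8 at 126 and 77.5 CPM against 7.89 and 7.28 CPM.

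**Figure D5:**
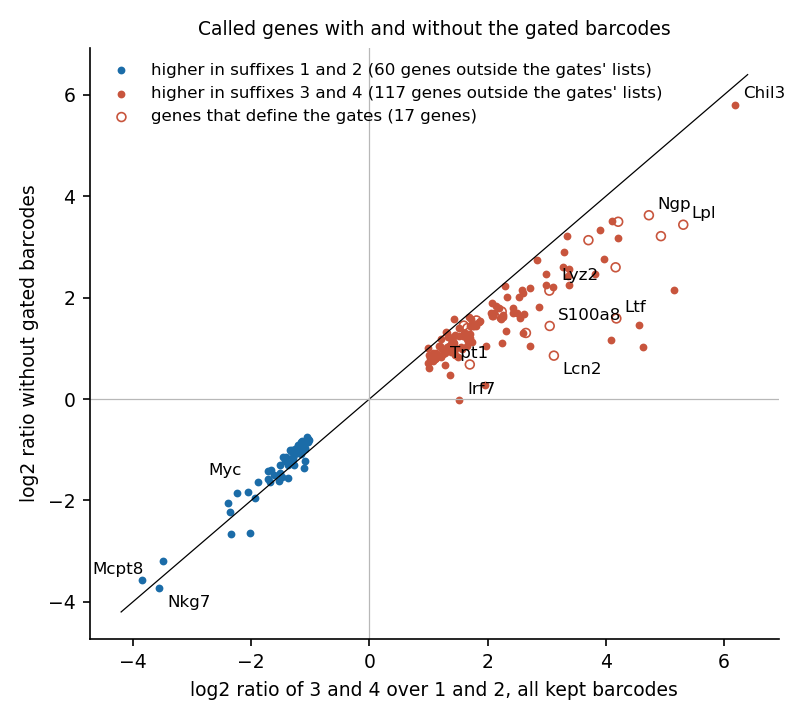
Log2 ratio of suffixes 3 and 4 over suffixes 1 and 2 for the 194 genes with all kept barcodes (x axis) and without barcodes of the neutrophil gate or the monocyte-macrophage gate at 0.5% (y axis), with the line of equal ratios. Open circles are the 17 genes that define these gates. Blue genes stay near the line, though 31 of the 60 no longer reach 2-fold. Red genes fall below it by varying amounts, and Irf7 lies at 0.

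The primary granule and basophil gates bear on genes higher in suffixes 1 and 2. Nkg7, Ms4a3 and Mpo had 54.2%, 58.0% and 53.6% of their suffix 1 UMIs and 69.2%, 66.7% and 62.4% of their suffix 2 UMIs in the primary granule gate, which Mpo helps to define. Without that gate 66 genes were higher in suffixes 1 and 2, 52 of them among the 60. Mcpt8 helps to define the basophil and mast cell gate and had 46.3% of its suffix 1 UMIs there, and without that gate 56 genes met the rule, all among the 60. Myc had 21.2% and 31.8% of its UMIs in the primary granule gate in suffixes 1 and 2, where the gate held 19.4% and 28.5% of all UMIs. Ms4a3 and Nkg7 had 58.4% and 45.7% of their suffix 3 UMIs in the neutrophil gate.

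Barcodes over the mitochondrial limit took no part in the rule, but they come from the same 4 libraries and are no independent check of it. They numbered 43, 50, 71 and 44 in suffixes 1 to 4. By pair-mean CPM, 52 of the 60 genes and 112 of the 134 genes went the same way in them as in the kept barcodes, where 48.7% of all measured genes were higher in suffixes 1 and 2 and 51.2% in suffixes 3 and 4. For 34 and 69 of them both libraries of the pair stood above both of the other, against 18.3% and 20.1% of all measured genes. Myc was among the genes that went the other way.

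Positions were taken from GENCODE M21 (GRCm38), in which 190 of the 194 symbols name 1 gene, 186 of them protein-coding. In 12 groups, 37 of the genes lay within 200 kb of another, and 5 of these groups held both directions. S100a4, S100a6, S100a8 and S100a9 (chr3:90603771-90695721) were all higher in suffixes 3 and 4, as were Ccl6, Ccl3 and Wfdc17 (chr11:83587882-83706268) and Ifitm3 and Ifitm6 (chr7:141009586-141017924). Mcpt8 and Ctsg (chr14:56082166-56102574) were both higher in suffixes 1 and 2. In the Ms4a cluster (chr19:11404770-11819403), Ms4a4c, Ms4a4b and Ms4a6c were higher in suffixes 3 and 4 and Ms4a3 in suffixes 1 and 2. Nkg7 and Cd33 (chr7:43437073-43544428) were also neighbours of opposite direction.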

How the data were processed

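Single-cell RNA was measured in 4 samples with the 10x Chromium 3' V2 kit, per the labels' protocols. Cell Ranger 1.3, the mm10 build and Seurat 2.3.4 are named in the submitters' processing notes, which name no gene annotation. The table the authors deposited holds raw UMI counts per gene and barcode for all 4 suffixes. Suffixes were treated as unassigned libraries, no doublet caller was run and no p-value was computed.

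UMIs of kept barcodes were summed per suffix and divided by the library total (CPM). Poisson intervals of CPM and conditional binomial intervals of gaps are exact, at 95%. A count of 0 allows 3 counts, between 0.302 and 0.392 CPM. The members and the 45 gene lists were chosen with earlier results of these data known, and the ribosomal list's pattern was corrected afterwards to leave out kinases. Genes were named from the 15 with the widest gap each way, the 2 most abundant and 2 most unequal of each list, the 3 nearest each side of 2-fold and Hif1a. Not all of these appear in the text, and which to print was chosen after their values were seen. Others illustrate a position, a gate or a motif and were also chosen after their values were seen. The monocyte-macrophage gate at 0.5% and the primary granule and basophil gates were added after seeing the data.

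Python 3.11.15, pandas 2.3.3, scipy 1.17.1, and for scaling factors only edgeR 4.0.16 (TMM) and DESeq2 1.42.0 (median of ratios) in R 4.3.3 were used. The rule was tested on simulated data. Alternatives were other mitochondrial limits, scalings, folds and CPM minima, thinning, gates and leaving out each suffix.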

Additional observations from a re-analysis of the deposited data

How the results depend on the processing

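No paired analysis was possible because the suffixes carry no group or replicate number. Counts are for suffixes 1 and 2, then for suffixes 3 and 4, against 60 and 134. Mitochondrial limits of 5% or none gave 62 and 134, and 59 and 135. Leaving out each suffix in turn gave 70 to 139 and 151 to 170, and it was without suffix 2 (139) and without suffix 4 (100) that the first count moved most; with fewer libraries the rule asks less. A fold of 1.5 gave 479 and 301, and a fold of 3 gave 12 and 73. A minimum of 10 CPM gave 93 and 194, and no minimum gave 523 and 789. The mean over barcodes gave 109 and 178, and thinning to 2000 UMIs gave 115 and 170; the cause was not tested. Without the 0.2% monocyte-macrophage gate the counts were 32 and 42, without it or the neutrophil gate 28 and 22, without the neutrophil gate alone 55 and 127, and without the neutrophil gate or the 0.5% gate 29 and 60. In the 208 barcodes over the mitochondrial limit alone, the counts were 150 and 191, with 11 and 23 shared, and of the 30 leading genes and Hif1a, 14 kept their side of the rule, 16 did not meet it (Cd74 and Retnlg at a log2 ratio of 0, the others in the same direction) and Myc was reversed, with a log2 ratio of 0.27. With 43 to 71 such barcodes a suffix, depth limits that comparison. The 0.5% gate and the barcodes over the mitochondrial limit were alternatives chosen after seeing the data.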

Other observations

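Several transcripts outside the 194 genes differed between the pairs below the 2-fold rule. The nuclear RNA Malat1 stood at 5974, 6140, 9927 and 9658 CPM and Neat1 at 57.7, 60.8, 98.4 and 102 CPM in suffixes 1 to 4. B2m, the light chain of MHC class I, stood at 3252, 3545, 2169 and 2439 CPM. Of 16 measured MHC class I genes 13 were above in both libraries of suffixes 1 and 2, as were 55.6% of all measured genes. Only 1 of the 16 met the rule, H2-Q7, which is among the 194 genes and was higher in suffixes 1 and 2. Mif, a cytokine known as HIF-induced, stood at 577, 841, 262 and 342 CPM, with suffix 2 above suffix 1. Hist1h2ap, a histone transcript, differed within both pairs, at 65.1, 28.3, 263 and 97.9 CPM.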
